A study of Homo sapiens with 2 samples.

Results

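The genes described here are XBP1, HSPA5, ATF4, DDIT3, ERN1, HERPUD1, MZB1, DNAJB9 and EDEM1, 9 human genes of the unfolded protein response and of protein folding in the endoplasmic reticulum of plasma cells. PRDM1 binding near them was read from chromatin immunoprecipitation and sequencing (ChIP-seq) of U266, an established multiple myeloma line. A peak belonged to a gene when its summit lay in the gene body or within 25 kb of it. By this rule 5 of the 9669 peaks of the authors' complete list belonged to 4 of the 9 genes. The groups were 1 library of chromatin precipitated with a rabbit monoclonal antibody against PRDM1 (C14A4) and 1 library of input DNA, whose antibody is given as none. Both are labelled U266, with the cell type given as plasma cell lymphoma, although the growth protocol also mentions the line NCI-H929. There was 1 line, 1 library of each kind and no treatment, so nothing below has a replicate check. Intervals cover the counting error of the PRDM1 tags only. They leave out the error of the tags expected from the input, so those of the ratios are too narrow. ChIP-seq gives no expression level, so plasma cell markers and the activity of the response were not measured.

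PRDM1 (BLIMP-1) represses transcription through DNA-binding zinc fingers and turns B cells into plasma cells that secrete antibody. Secretion on that scale loads the endoplasmic reticulum with unfolded chains, and cells answer with the unfolded protein response. Its sensor IRE1, encoded by ERN1, splices the XBP1 mRNA so that it encodes an active transcription factor, while the sensor PERK acts through the translation of ATF4 and its target DDIT3. XBP1 and ATF6 then raise chaperones such as HSPA5 and degradation factors such as HERPUD1 through ER stress elements in their promoters. In mice, BLIMP-1 has been reported to regulate several genes of this response in plasma cells.

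No peak of the complete list overlapped the 1 kb on either side of the start of any of the 9 genes. A listed peak overlapped 0.915% of 2 kb windows tiled over the genome, so a count of 0 among 9 stretches of that width is no result about these genes. The promoters of 4 of them are shown to let the elements of the stress response be read beside the letters that PRDM1 prefers. They are RefSeq sequences of build GRCh38.p14, from 250 bases before the start to 50 bases after it, 5′ to 3′ along the gene, for the first listed start site. Capitals mark the ER stress element (CCAAT and CCACG with 9 bases between) in XBP1 and HSPA5. They also mark the ER stress element II (ATTGG and CCACG with 1 base between) in HERPUD1. The letters GAAAG, or CTTTC for the opposite strand, are marked in XBP1 and DDIT3. Only exact matches are marked. The CTTTC of DDIT3 overlaps a stretch that is 1 letter from the ER stress element (CCAAT and CCACT with 9 bases between).
XBP1 promoter, chr22:28800520-28800819, minus strand, with the ER stress element followed by GAAAG: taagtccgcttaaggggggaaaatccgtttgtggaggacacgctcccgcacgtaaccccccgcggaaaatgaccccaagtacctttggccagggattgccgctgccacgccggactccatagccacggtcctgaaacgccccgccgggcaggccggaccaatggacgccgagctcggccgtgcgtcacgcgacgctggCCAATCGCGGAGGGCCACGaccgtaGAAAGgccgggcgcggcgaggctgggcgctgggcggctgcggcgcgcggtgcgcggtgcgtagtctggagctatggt
HSPA5 promoter, chr9:125241294-125241593, minus strand, with the ER stress element: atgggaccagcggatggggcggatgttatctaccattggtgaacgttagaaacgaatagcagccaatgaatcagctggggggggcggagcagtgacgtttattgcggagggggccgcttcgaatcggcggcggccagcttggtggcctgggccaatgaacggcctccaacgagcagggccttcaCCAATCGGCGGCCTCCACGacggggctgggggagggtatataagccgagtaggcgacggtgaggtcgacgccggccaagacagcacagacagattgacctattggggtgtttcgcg
HERPUD1 promoter, chr16:56931892-56932191, plus strand, with the ER stress element II: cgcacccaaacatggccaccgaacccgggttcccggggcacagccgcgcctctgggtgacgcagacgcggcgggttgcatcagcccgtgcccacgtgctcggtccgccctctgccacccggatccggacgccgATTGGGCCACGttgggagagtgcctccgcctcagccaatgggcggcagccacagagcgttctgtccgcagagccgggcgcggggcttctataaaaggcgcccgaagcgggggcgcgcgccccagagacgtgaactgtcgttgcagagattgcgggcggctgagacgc
DDIT3 promoter, chr12:57520465-57520764, minus strand, with CTTTC: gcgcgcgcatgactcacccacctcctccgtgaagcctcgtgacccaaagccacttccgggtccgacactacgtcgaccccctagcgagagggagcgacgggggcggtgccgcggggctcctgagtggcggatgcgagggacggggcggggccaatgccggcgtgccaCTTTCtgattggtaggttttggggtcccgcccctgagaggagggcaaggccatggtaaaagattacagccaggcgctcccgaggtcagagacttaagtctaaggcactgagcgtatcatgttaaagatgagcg

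An exact match to the ER stress element was found in 2 of the 9 promoters, those of XBP1 and HSPA5, against 22 of 27305 RefSeq promoters (0.0806%). In XBP1 it began 52 bases before the start and in HSPA5 66 bases before it. The ER stress element II was found in 1 of the 9, HERPUD1, from 117 bases before the start, against 15 of 27305 promoters (0.0549%). It was chosen after seeing the data. HSPA5 and HERPUD1 are named above as genes already known to act through such elements. The counts of both elements are therefore a description and no independent result. They cover exact matches only. In the printed promoters, CCAAT is followed after 9 bases by CCACT in DDIT3 and by CCACA in HERPUD1, each 1 letter from the ER stress element. Such near matches were not searched for over all promoters. The unfolded protein response element TGACGTG was in 0 of the 9 and in 546 of all promoters (2.0%). GTGAAAG, 7 letters of the sequence that PRDM1 prefers, was in 0 of the 9 and in 1072 of all promoters (3.93%). Its core GAAAG, which every GTGAAAG contains, was in 4 of the 9 (XBP1, ATF4, DDIT3 and DNAJB9) and in 54.9% of all promoters. Both strands were searched, and a match is a run of letters and not a shown binding site.

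Of the 9 gene windows, 4 held at least 1 listed peak, and 18.1% of 43119 windows of 68 kb tiled over the genome did so. The gene windows were 53 to 141 kb wide, 68.3 kb on average. With a false discovery rate (FDR) of at most 5%, 3 of the 9 windows held a peak, against 8.52% of the tiled windows. At the authors' stricter limits, which add a minimum of 50 tags, 1 of the 9 did, against 1.95% of the tiled windows. The tiled windows include regions without genes, and the share among windows around genes was not computed, since no annotation of the files' build was used. Tiled at each gene's own width, the share with a peak was 14.7% for ATF4 and MZB1 and 32.1% for ERN1, the longest of the 9 genes. The FDR, the tag counts and the folds are the authors' values: for a given score, the FDR sets the peaks found in the input over ChIP against those found in the ChIP over input.

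**Figure D1:**
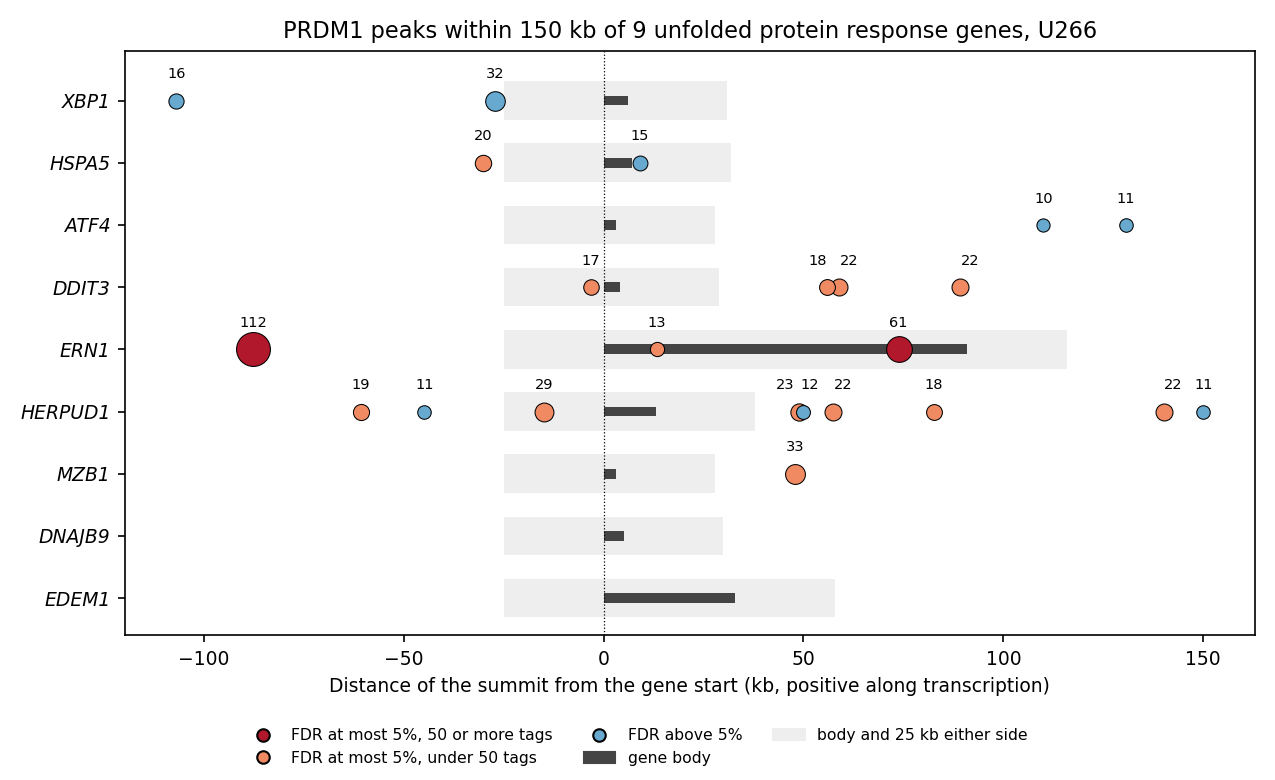
Positions of PRDM1 peak summits within 150 kb of each gene body, as distance in kb from the gene start along the direction of transcription; numbers above the points are tags per peak, point area grows with tags, and colours give the FDR class. ERN1 has 2 peaks inside its body, HSPA5, DDIT3 and HERPUD1 have 1 each within 25 kb, and DNAJB9 and EDEM1 have none within 150 kb.

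ERN1, which encodes the sensor IRE1, had the most PRDM1 tags of the 9 genes within 25 kb, in a window of 141 kb where the others had 53 to 83 kb. Within 50 kb, HERPUD1 had more, with 97 tags against 74 at ERN1. It held 2 peaks, both inside the gene body (chromosome 17, 62117 to 62208 kb in GRCh37, minus strand; kb limits of the other genes are given likewise). The larger lay at chr17:62133357-62134686, with its summit 73.8 kb past the gene start, and held 61 tags at a fold of 13.18 over the local input and an FDR of 0.08%. The smaller lay at chr17:62194512-62195069, with its summit 13.3 kb past the start, and held 13 tags at a fold of 15.28 and an FDR of 3.94%. Together they held 74 of the 135 tags in the 5 peaks (54.8%). Whether either lies in an exon or an intron was not determined.

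The larger ERN1 peak stood high in the list by tags, above the middle by fold and low by the ratio of scaled to expected tags over its whole width. It was the only one of the 5 within the authors' filtered list, with its limits of 5% FDR and 50 tags, which takes 9.17% of all listed peaks. By tags it ranked 616th of 9669, and 93.5% of peaks had fewer. Its fold at the summit, 13.18, was higher than that of 69% of the list, whose median was 11.04. Its 61 tags, scaled to the depth of the input, were 4.51 times the 14.6 tags expected from the input (95% Poisson interval 3.47 to 5.83). Only 19.4% of the list had a lower ratio, and 1 of the 16 peaks with exactly 61 tags did. The input background there was 3.47 times the genome mean, against a median of 1.26 times over the list. The part of this background in the tag count was not tested. Here and below, the background was solved from the authors' score and is not a direct count of the input. Its lower quartile over the list was 1.00 times the genome mean, so input below the mean may not show in it.

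The smaller ERN1 peak held few tags over a background near the genome mean. Its fold, 15.28, was higher than that of 76.9% of the list. Its ratio of scaled to expected tags was 6.97 (3.75 to 12.1), with a background of 1.14 times the genome mean. Of the 503 peaks with 13 tags, 90.9% had a lower ratio and 18.7% had an FDR of at most 5%. The intervals of the ratios of both ERN1 peaks overlap, and no test was made between the ratios.

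**Figure D2:**
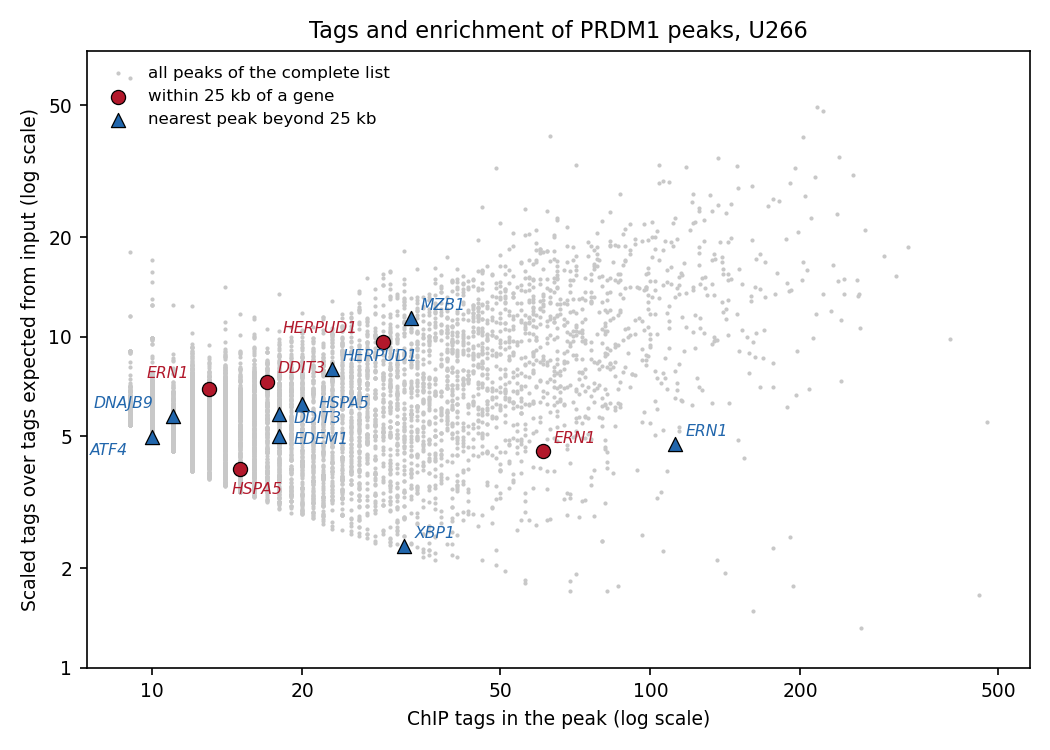
Each point is a PRDM1 peak, with its ChIP tags on the x axis and its scaled tags over the tags expected from the input on the y axis, both on log scales; grey points are the complete list, red circles the peaks within 25 kb of a gene and blue triangles the nearest peak beyond 25 kb. The ERN1 peak of 61 tags lies low among peaks of its size at 4.51, and the peak nearest XBP1 lies near the lower edge at 2.33.

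HERPUD1 and HSPA5 both act downstream of the sensors. HERPUD1 encodes a membrane protein of the endoplasmic reticulum that takes part in the degradation of misfolded proteins. Its peak (chr16:56950469-56951411) lay upstream, with the summit 14.9 kb before the gene start. It held 29 tags, a fold of 20.59 and an FDR of 0.14%. Its ratio of scaled to expected tags, 9.67 (6.60 to 14.2), was the highest of the 5, and 90.5% of the list had a lower one. This interval does not overlap that of the larger ERN1 peak, which had more tags. The HERPUD1 ratio was singled out as the highest of the 5, and no test was made between the ratios. The gene body lies on chromosome 16 from 56966 to 56979 kb on the plus strand. RefSeq gives SLC12A3, a sodium chloride cotransporter of the kidney, as the next protein-coding gene on the side of the peak, so the peak is not assigned to HERPUD1 by position alone.

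HSPA5 encodes BiP, the main HSP70 chaperone of the endoplasmic reticulum, which also holds the sensors inactive, and lies on chromosome 9 from 127997 to 128004 kb on the minus strand. Its peak (chr9:127994447-127995212) lay 2.08 kb beyond the 3′ end of the gene and 9.08 kb past the start. It held 15 tags, and its fold of 8.62 was the lowest and its FDR of 26.4% the highest of the 5. The ratio of scaled to expected tags was 4.0 (2.29 to 6.74), and 11.2% of the list had a lower one. Of the 334 peaks with 15 tags, 38.6% had an FDR of at most 5%. RABEPK, which encodes a kelch-domain protein that binds the GTPase RAB9, is the neighbouring gene on that side. Whether the summit lies inside RABEPK was not determined. The other 4 of the 5 peaks had an FDR of at most 5%, as did 43.5% of the complete list.

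The PERK branch was represented by ATF4 (chromosome 22, 39916 to 39919 kb, plus strand) and DDIT3 (chromosome 12, 57910 to 57914 kb, minus strand). ATF4 encodes a transcription factor whose translation rises when general translation is reduced, and DDIT3 encodes CHOP, a transcription factor linked to cell death under lasting stress. Among the 9 genes, DDIT3 had the peak closest to its own start, with its summit 3.13 kb upstream (chr12:57916911-57917679). It held 17 tags, a fold of 14.06 and an FDR of 0.91%. The ratio was 7.31 (4.38 to 12.05), higher than in 80% of the list, with an input background of 1.01 times the genome mean. The next protein-coding gene on that side is MBD6, of the methyl-CpG binding domain family. Whether the summit lies inside MBD6 or nearer to its start was not determined, so the peak is not assigned to DDIT3 by position alone. ATF4 had no peak in its window. Its nearest one lay 107 kb past the gene, with 10 tags and an FDR of 47.1%.

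XBP1, the transcription factor of the IRE1 branch (chromosome 22, 29191 to 29197 kb, minus strand), had no peak within 25 kb. The nearest summit lay just outside the limit, 27.0 kb upstream of the gene, in a peak at chr22:29222861-29224479. It held 32 tags, more than 4 of the 5 peaks inside the windows, but its fold was 6.11 and its FDR 39.9%. Its ratio was 2.33 (1.64 to 3.38), and only 0.331% of the list had a lower one. Of the 91 peaks with 32 tags, 89.0% had an FDR of at most 5%. The peak was 1619 bp wide over an input background of 2.84 times the genome mean. RefSeq gives ZNRF3 as the next protein-coding gene upstream of XBP1, and whether the summit lies inside it was not determined.

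MZB1 encodes a resident of the endoplasmic reticulum of B and plasma cells that helps immunoglobulin assembly, and lies on chromosome 5 from 138723 to 138726 kb on the minus strand. It had no peak within 25 kb either, and its nearest one was unlike that of XBP1 at nearly the same tag count. That peak (chr5:138677548-138678400) lay 45.0 kb past the 3′ end and held 33 tags at a fold of 36.11 and an FDR of 0.09%. Its ratio was 11.4 (8.06 to 16.4), and 94% of the list had a lower one. It was 853 bp wide over a background of 1.14 times the genome mean. The intervals of the ratios near MZB1 and near XBP1 do not overlap. These were the highest and lowest ratios among the 9 nearest peaks beyond the limit, so the pair was taken from the extremes. No test was made between the ratios. RefSeq gives SLC23A1 as the next protein-coding gene on the 3′ side of MZB1, so the peak is not assigned to MZB1 by position alone. Genes farther along that side may lie nearer to the peak than SLC23A1, and this was not determined.

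DNAJB9 and EDEM1 had no listed peak within 150 kb, which is common in this list. Of points placed every 10 kb between the outer peaks of each chromosome, 36.1% lay farther from a summit than the DNAJB9 start. For the EDEM1 start the share was 38.7%, so these distances are no result about the 2 genes. DNAJB9 (chromosome 7, 108210 to 108215 kb, plus strand) encodes ERdj4, a co-chaperone of BiP, and its nearest summit lay 230.4 kb past the gene, with 11 tags and an FDR of 23.8%. EDEM1 (chromosome 3, 5229 to 5262 kb, plus strand) encodes a lectin-like protein that directs misfolded glycoproteins to degradation. Its nearest summit lay 187 kb past the gene, with 18 tags and an FDR of 3.92%. The list holds no peak under 9 tags and none above a Poisson p of 1e-05, and 200 bp at the genome mean held 0.634 input tags. Binding too weak to pass those limits was not detectable at this depth.

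**Figure D3:**
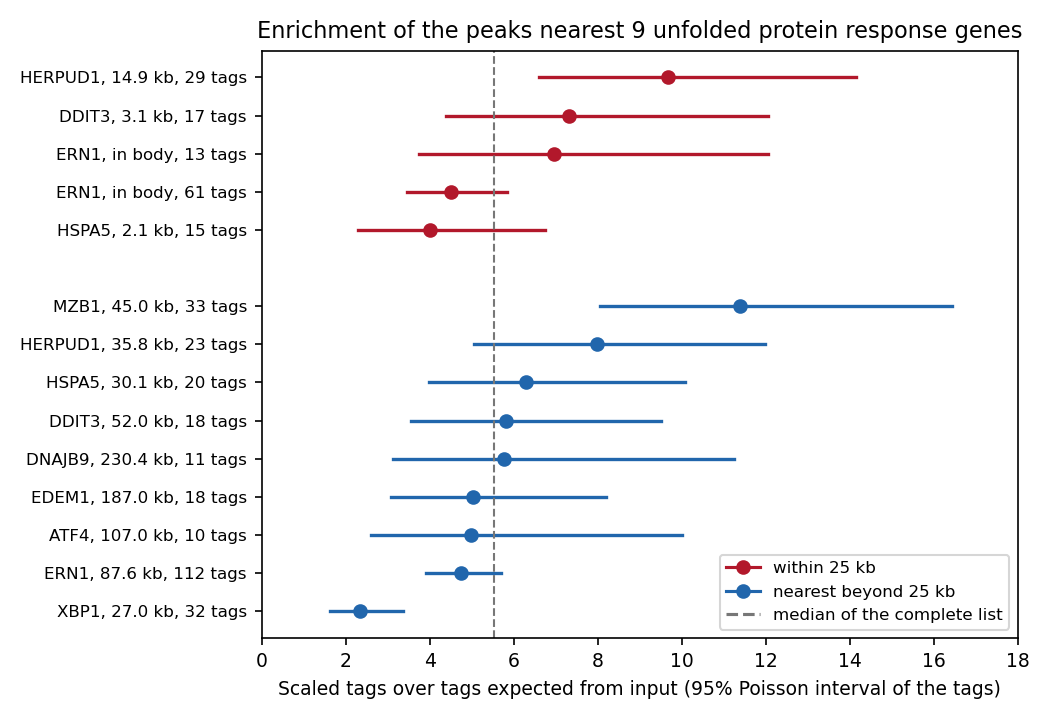
Scaled ChIP tags over the tags expected from the input for the 5 peaks within 25 kb of a gene (above, red) and for the nearest peak beyond 25 kb of each of the 9 genes (below, blue), with 95% Poisson intervals of the tags; labels give the distance from the gene body and the tags, and the dashed line is the median of the complete list, 5.54. HERPUD1 (9.67) has the highest value within 25 kb and HSPA5 (4.0) the lowest, and beyond it MZB1 (11.4) the highest and XBP1 (2.33) the lowest.

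Ordered by the distance from a gene start to the nearest summit, DDIT3 came first (3.13 kb), followed by HSPA5 (9.08 kb), ERN1 (13.3 kb), HERPUD1 (14.9 kb) and XBP1 (27.0 kb). MZB1 (48.0 kb), ATF4 (110.0 kb), EDEM1 (214 kb, to a summit on its upstream side) and DNAJB9 (235.4 kb) followed. For points placed every 10 kb between the outer peaks of each chromosome, the median distance to the nearest summit was 141.4 kb. Of the 9 starts, 7 lay nearer to a summit than the median point, and EDEM1 and DNAJB9 lay farther. The points include regions without genes, and the distance from gene starts in general was not computed. The count of 7 is therefore no result about these genes. Each distance carries up to 1 kb of rounding, since the gene limits were given in whole kb, so the order of ERN1 and HERPUD1 is not firm.

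In tags, fold, ratio and width, the medians of the 5 peaks lay between those of the complete list and those of the filtered list. They held a median of 17 tags, from 13 to 61, against 15 over the complete list and 72 over the filtered one. Their median fold was 14.1, against 11.04 over the list and 31.4 over the filtered peaks. Their median ratio of scaled to expected tags was 6.97, against 5.54 over the list and 10.4 over the filtered peaks. The median width was 769 bp, against 724 bp over the list and 1531 bp over the filtered peaks. The median input background was 1.14 times the genome mean, below that of the list (1.26) and of the filtered peaks (1.58). Summed over the 5 peaks there were 135 tags (exact 95% Poisson interval 113.2 to 159.8) of the 7854466 tags kept in the PRDM1 library.

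Ratios of scaled to expected tags ran from 4.0 to 9.67 for the 5 peaks inside the limit and from 2.33 to 11.4 for the 9 nearest peaks beyond it, and no test was made between them. Of the 5 peaks inside, 4 had an FDR of at most 5% and 1 was in the filtered list, and of the 9 beyond, 6 and 1. Over the complete list the shares were 43.5% and 9.17%. Counts this small are no result about the limit. The filtered peak beyond the limit lay 87.6 kb upstream of ERN1, on the side of its neighbour TEX2 (chr17:62294272-62297488), and held 112 tags, the most of all 14. Its fold was 16.25, higher than that of 80.2% of the list, and its ratio was 4.74 (3.90 to 5.70), higher than that of 23.6%, over a background of 2.52 times the genome mean. The nearest peak beyond the limit of HERPUD1 lay 35.8 kb past the gene, with 23 tags and a ratio of 7.97 (5.07 to 11.99). HSPA5 had one 30.1 kb upstream with 20 tags and 6.29 (3.98 to 10.1), and DDIT3 one 52.0 kb past the gene with 18 tags and 5.83 (3.57 to 9.51).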

How the data were processed

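PRDM1-bound chromatin and input DNA of U266 cells were sequenced, 1 library each. The submitters' processing notes name CASAVA 1.8.2, Bowtie 0.12.7 and MACS 1.4, and peaks were called with MACS 1.4.1 on merged alignments at a p cutoff of 1e-05, per the file headers. After removal of duplicates 7854466 PRDM1 tags and 8556458 input tags were kept. The genome build is not given in the sources used here. By end position 0 peaks lay past the end of their GRCh37 chromosome and 53 past that of GRCh38, by chromosome lengths typed from general knowledge, so positions are given as GRCh37.

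Per the file headers, the deposited tags are raw counts per peak, the score is -10 times log10 of a Poisson p-value, the fold is a ratio of summit height to local background, and the FDR is in percent. Both deposited copies of the complete list held the same 9669 peaks, and the filtered list held the 887 of them with 50 tags or more and an FDR up to 5%. All other columns give positions.

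Expected tags were solved from each score with SciPy 1.17.1 after scaling the tags by 1.09 (input over PRDM1 tags) and rounding down. Taken per 200 bp of peak width and multiplied by the fold, this gave a whole summit height within 0.06 tags for 98.7% of 9667 peaks, and 2 peaks with a fixed score were left out. The solver was checked on simulated peaks made with the same formula, which tests the solving and not how the authors' scores were made. Gene limits came in whole kb. Strands, neighbours by order only, and promoters came from RefSeq GRCh38.p14, which holds all 9 genes, with the strand taken to be the same in GRCh37. All 9 genes, each peak within 25 kb and the nearest beyond it are named. The members and lists were chosen with earlier results of these data known. Other genes of the pathway were not counted and peak sequences were not read, since no annotation or genome of the files' build was used here. No test was run, as there was 1 library of each kind.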

Additional observations from a re-analysis of the deposited data

How the results depend on the processing

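The counts of 5 peaks and 4 genes were the same when any overlap or the whole peak was required in place of the summit, and when gene limits were moved by 1 kb either way. Other distance limits gave 2 peaks at 0 kb, 4 at 5 and 10 kb, 12 at 50 kb and 18 at 100 kb, at 1, 3, 3, 6 and 6 genes, since a wider window takes in more peaks. The share of tiled windows with a peak was not computed for the widths that these limits give. With an FDR of at most 5%, 4 peaks at 3 genes were left. With at least 50 tags as well, 1 peak at 1 gene was left, and with at least 100 tags 0 peaks at 0 genes. Among the 5 peaks, 2 passed at 25 tags, 1 at an FDR of at most 1% and 50 tags, and 0 at 100 tags. The median ratio of scaled to expected tags was 6.97, 6.85 with rounding to the nearest and 7.63 without scaling. The share of tiled windows with a peak was 18.1%, 18.2% with the tiling shifted, 13.9% at 50 kb and 33.5% at 150 kb. GTGAAAG was in 0 of the 9 promoters, also in the 100 bases around the start, while GAAAG was in 4 and the ER stress element II, chosen after seeing the data, in 1. Matches in peaks were not run. No paired analysis was possible because the ChIP and the input had 1 library each.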

Other observations

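Peak counts in the wider surroundings of the 9 genes are given as a description. The windows differ in width with the gene body, and no share of tiled windows of these widths was computed. The counts are therefore no result about these genes. Within 100 kb of its body HERPUD1 had 7 peaks, 5 of them with an FDR of at most 5%, though 0 reached the filtered list. DDIT3 had 4 within 100 kb, all 4 with such an FDR, ERN1 had 3, 2 of them filtered, and HSPA5 had 2. XBP1 and MZB1 had 1 each, and ATF4, DNAJB9 and EDEM1 had 0. The neighbour of HERPUD1 on its 3′ side is CETP, which encodes a lipid transfer protein of plasma.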
